A study of Mus musculus with 10 samples.

Results

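Semaphorins are a family of secreted, transmembrane and membrane-anchored guidance proteins that growing axons, dendrites and migrating neurons read as repulsive or attractive cues. Plexins are their main receptors, and most of the secreted class 3 semaphorins act through a complex in which a neuropilin binds the ligand and a class A plexin carries the signal into the cell. Inside the cell, plexins switch off small GTPases of the Ras and Rap type, Farps activate Rac, Micals oxidize and take apart actin filaments, and the collapsin response mediator proteins (CRMPs, encoded by *Crmp1* and the *Dpysl* genes) bind tubulin until kinases release them. In the developing cortex these proteins are known for steering corticofugal and callosal axons and for placing migrating neurons. The genes described here are the rows of the count table whose symbol names a semaphorin of classes 3 to 7 or a plexin, together with *Nrp1*, *Nrp2*, *Crmp1*, *Dpysl2*, *Dpysl3*, *Dpysl4*, *Dpysl5*, *Mical1*, *Mical2*, *Mical3*, *Farp1* and *Farp2*. There were 40 such genes of the 14300 in the table, namely 20 semaphorins, 10 plexins and neuropilins, and 10 intracellular mediators. *Plxnb3* and the antisense genes *Plxna4os1*, *Plxna4os2* and *Plxna4os3* match the same rule by name but have no row and were not analysed here.

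The libraries came from C57BL/6J embryos of the *Grem1creERT; Rosa26LSLTdtomato* line, in which a tamoxifen-activated Cre under *Grem1* regulatory sequences switches on red TdTomato in cells active for *Grem1* and in their progeny. All pregnant mice were of this line and received tamoxifen in midgestation, 24 h before the cells were taken. Both days of gestation were the same for every library and are given with the processing below. The groups were set by whether a live cell was red when sorted. The genotype of each embryo is not given in the sources used here. The TdTomato+ group and the TdTomato- group hold 5 libraries each, 1 of each population for every mouse number from 2 to 6. The labels name the tissue as brain, whereas the methods describe dissected dorsal telencephalon without meninges. Total counts per library ranged from 23429034 to 27286180. *Grem1* itself was at 60.7 to 68.4 CPM (counts scaled to the size of the library, TMM factor included) in TdTomato+ and at 5.0 to 7.0 CPM in TdTomato- libraries. The 6 deep-layer neuron markers summed to 4770 to 5816 CPM in TdTomato+ against 1238 to 1676 CPM in TdTomato- libraries, whereas the 8 radial glia markers summed to 128 to 176 and 1572 to 1848 CPM and the 6 GABAergic markers to 41.1 to 62.0 and 1256 to 1638 CPM, so the TdTomato- libraries held RNA of several other cell types. The 5 microglial, 3 pericyte and 5 erythroid markers in the table were all lower in TdTomato+ libraries by the test used below. By the same test 5 of the 6 deep-layer neuron markers were higher, and *Foxp2* was not called. In bulk RNA, fewer cells of a type and less RNA per cell cannot be told apart, and this holds for each difference given below. *Xist* and Y-linked transcripts were found together in the libraries of mice 2, 3 and 4 (*Xist* 554 to 1066 CPM, *Kdm5d* 23.8 to 41.7 CPM), and *Kdm5d* was at 1.07 and 1.39 CPM in the libraries of mouse 5 and *Xist* at 30.8 and 42.2 CPM beside *Kdm5d* at 52.0 and 64.5 CPM in those of mouse 6, so a mouse number need not be 1 embryo.

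Some libraries of the same population stood apart. Compared with each other, the counts of the TdTomato+ libraries of mice 3 and 4 gave a chi-square of 4.53 for each degree of freedom, and every other pair of TdTomato+ libraries gave 8.79 to 32.76. For 11 of the 40 genes the TdTomato+ libraries of mice 3 and 4 were the 2 highest of the 5 (19.6% of all genes), and for 13 they were the 2 lowest (19.7% of all genes). Among cell type markers, *Tle4* was at 268 and 204 CPM in the TdTomato+ libraries of mice 3 and 4 and 348 to 455 CPM in the other three, *Foxp2* at 30.3 and 24.5 against 59.6 to 66.7 CPM, *Rorb* at 83.3 and 68.5 against 139 to 153 CPM, and *Tbr1* at 2087 and 2026 against 1442 to 1558 CPM. The part of these differences in the results was not tested. Values without mice 3 and 4 are given beside the results they move most, and that choice was made after seeing the data.

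Of the 40 genes, 22 were higher and 12 lower in TdTomato+ cells at an FDR of at most 0.05 (p of the edgeR quasi-likelihood F-test with the mouse as a block, adjusted by Benjamini-Hochberg over 14300 genes), and 6 did not pass. This threshold called 37.9% of all genes higher and 39.4% lower. With the further requirement of a log2FC beyond 2 in either direction, by which the study defined a differentially expressed gene (DEG), *Plxnd1* and *Mical2* were higher and *Sema3g* lower, where 3.2% and 9.74% of all genes passed in each direction. The 10 libraries did not overlap for 20 genes that were higher (29.1% of all genes) and 9 that were lower (32.4% of all genes). The median log2FC was 0.30 over the 40 genes and −0.01 over all genes. Here log2FC, the log2 of the fold change of TdTomato+ over TdTomato- cells, is given ± its s.e., and levels are mean±s.d. over the 5 libraries of a population. In the plot of fold changes, the direction was the same in every mouse for the mediators that changed, while *Plxna4* and *Plxnc1* lay on opposite sides of 0 in different mice.

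**Figure D1:**
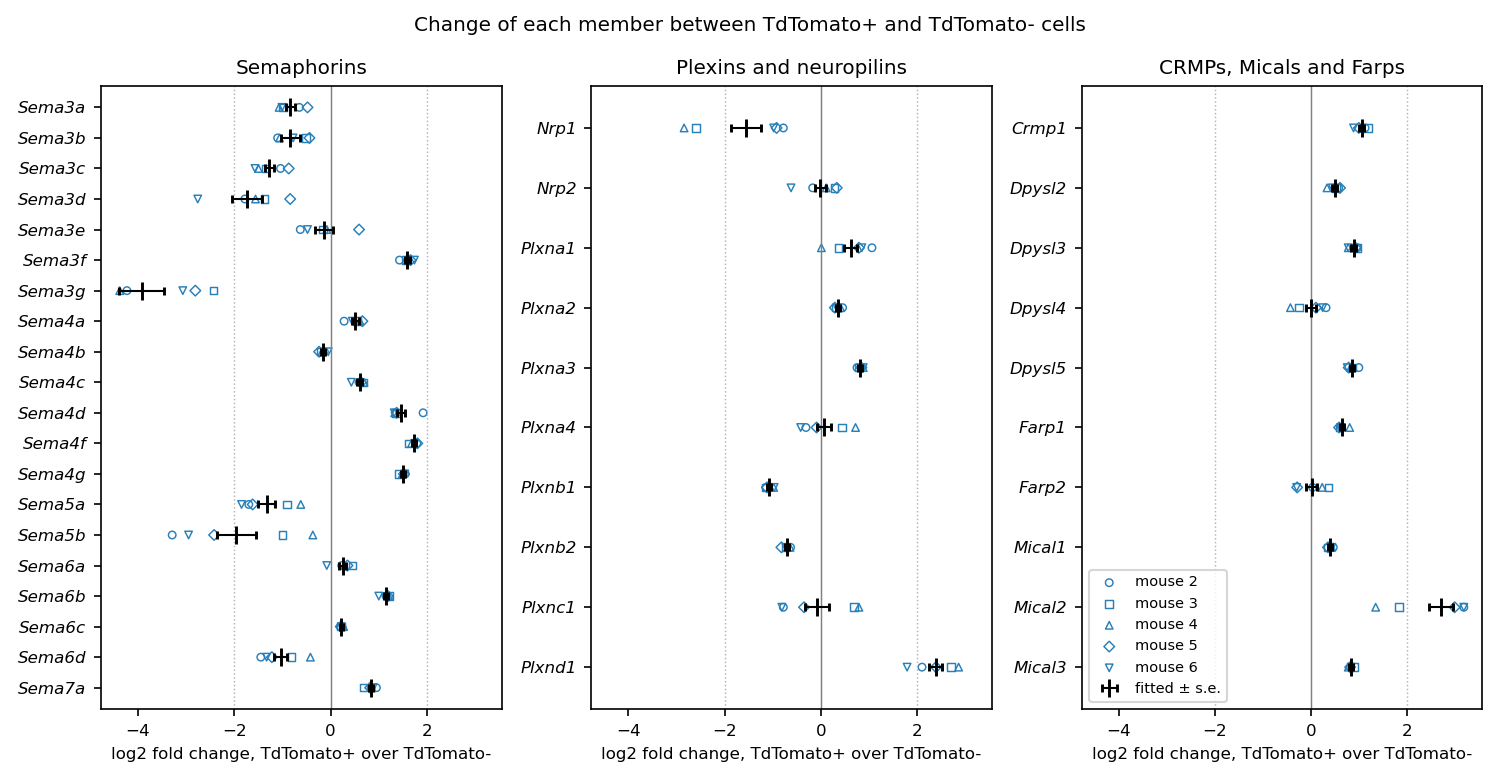
Log2FC of each of the 40 genes, TdTomato+ over TdTomato-, in panels for semaphorins, receptors and mediators. Black marks are fitted values with their s.e., open symbols are the log2 ratios of single mice, and dotted lines mark −2 and 2; only *Plxnd1* (2.38), *Mical2* (2.70) and *Sema3g* (−3.92) have fitted values beyond them.

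The promoters of the 3 DEGs are printed because these genes had the largest changes. Each run is the 250 bases before the RefSeq start on the gene's own strand (GRCm38.p6), and capitals mark a GC box (GGGCGG on either strand), a motif of many promoters with CpG islands, which the *Mical2* window does not hold.
Plxnd1 (chr6:115995006-115995255, minus strand): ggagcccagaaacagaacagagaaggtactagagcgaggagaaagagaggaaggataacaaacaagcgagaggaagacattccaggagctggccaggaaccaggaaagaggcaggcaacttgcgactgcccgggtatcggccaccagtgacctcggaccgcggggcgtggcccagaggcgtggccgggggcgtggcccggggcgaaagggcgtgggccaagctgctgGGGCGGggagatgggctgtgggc
Mical2 (chr7:112225586-112225835, plus strand): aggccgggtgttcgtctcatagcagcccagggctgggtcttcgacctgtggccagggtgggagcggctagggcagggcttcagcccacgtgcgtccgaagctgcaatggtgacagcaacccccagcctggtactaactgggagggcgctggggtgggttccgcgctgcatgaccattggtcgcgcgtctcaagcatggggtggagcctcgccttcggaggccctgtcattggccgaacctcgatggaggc
Sema3g (chr14:31217623-31217872, plus strand): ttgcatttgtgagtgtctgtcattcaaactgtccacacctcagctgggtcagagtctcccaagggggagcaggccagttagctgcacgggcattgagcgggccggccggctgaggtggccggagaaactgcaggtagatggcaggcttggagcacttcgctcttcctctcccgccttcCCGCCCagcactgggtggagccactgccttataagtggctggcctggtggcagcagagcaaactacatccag
The *Plxnd1* and *Mical2* windows were 64.8% and 66.0% G or C with 16 and 17 CpG dinucleotides, and the *Sema3g* window was 60.4% G or C with 8. Over the promoters of the genes in the table the medians were 60.4% and 16. RefSeq promoters were found for 31 of the 40 genes, and 24 of the 31 (77.4%) held a GC box, compared with 60.8% of 10560 promoters of genes in the table. The promoters of the 31 were also richer in G or C, with medians of 64.4% and 17 CpG dinucleotides, and the part of this was not tested. The E-box CAGATG, a form bound by neurogenic basic helix-loop-helix factors, was in 2 of the 31 (*Sema3c* and *Mical3*) and in 9.54% of the promoters of genes in the table, and the T-box half-site GGTGTGA, a form bound by factors such as Tbr1, was in 1 of the 31 (*Nrp2*) and in 2.65%. Both strands were searched, the motifs do not overlap one another in their letters, and a match is a description of these windows only.

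Of the 7 secreted class 3 semaphorins in the table, 5 were lower in TdTomato+ cells (39.4% of all genes were) and 1 was higher (37.9%). *Sema3a*, *Sema3b*, *Sema3c*, *Sema3d* and *Sema3g* fell, *Sema3f* rose and *Sema3e* did not pass the test, with a median log2FC of −0.84. *Sema3f*, which binds neuropilin 2 and repels axons and interneurons, was at 143±14.0 CPM in TdTomato+ against 47.4±6.43 CPM in TdTomato- cells, a log2FC of 1.59±0.05 (FDR=1.1e-08). Its 5 TdTomato+ libraries lay between 125 and 158 CPM and its TdTomato- libraries between 42.1 and 58.4 CPM, with no overlap. *Sema3f* thereby made up 85.1±2.80% of the summed class 3 level per kb of exon in TdTomato+ libraries and 47.1±5.65% in TdTomato- libraries.

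*Sema3c*, which can attract cortical axons through neuropilin 1, fell by 1.27±0.10 in log2FC (FDR=3.5e-06), from 45.7±5.95 to 19.0±2.94 CPM, and its share of the class 3 level per kb was 8.29±1.41% in TdTomato+ and 33.1±4.20% in TdTomato- libraries. *Sema3a*, the collapsin that repels cortical axons and orients apical dendrites through neuropilin 1, fell by 0.84±0.09 in log2FC (FDR=2.7e-05), from 36.1±5.99 to 20.1±3.02 CPM. Neither gene's populations overlapped, the highest TdTomato+ library being 24.1 CPM for *Sema3c* and 24.3 CPM for *Sema3a* and the lowest TdTomato- libraries 36.5 and 28.4 CPM. *Sema3g*, a class 3 semaphorin known from blood vessels, was called lower, as were the markers of several other cell types. The 3 pericyte markers summed to 0.795 to 2.17 CPM in TdTomato+ libraries and 10.6 to 17.4 CPM in TdTomato- libraries, whereas *Pecam1*, the 1 endothelial marker of 6 in the table, was at 0.353 to 0.954 and 0.547 to 1.11 CPM and was not called (log2FC −0.62±0.26, FDR=0.052), and the part of either was not tested. *Sema3g* had 0, 5, 0, 4 and 2 counts in the TdTomato+ libraries of mice 2 to 6, and 37, 44, 40, 43 and 39 counts in the TdTomato- libraries. All TdTomato- libraries were therefore above all TdTomato+ libraries, of which 3 were at or under a floor of 3 counts (counting error only). The fitted log2FC of −3.92±0.47 (FDR=5.3e-05) depends on the prior count and was −3.19 with a prior count of 2. *Sema3d* was also scarce, with 2 to 16 counts in TdTomato+ and 30 to 41 in TdTomato- libraries, a log2FC of −1.73±0.31 (FDR=6.9e-04), and without mouse 5 it was −2.02 and so past the DEG threshold. *Sema3b* had 13 to 21 and 26 to 44 counts and a log2FC of −0.84±0.20 (FDR=0.0042), which DESeq2 did not call (FDR=0.053). *Sema3e*, the ligand that binds plexin D1 without a neuropilin, was at 4.11±1.32 CPM in TdTomato+ against 4.42±0.305 CPM in TdTomato- cells (log2FC −0.14±0.18, FDR=0.49).

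Neighbouring class 3 genes did not move as blocks. *Sema3b* (chromosome 9 from 107597674 to 107609229) and *Sema3f* (chromosome 9 from 107681500 to 107710475, both on the minus strand of GRCm38) are 72 kb apart and changed in opposite directions. *Sema3d*, *Sema3a*, *Sema3e* and *Sema3c* follow each other on the plus strand of chromosome 5 between 12383385 and 17730268, and the third of them, *Sema3e*, did not pass the test while the others fell.

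Of the 6 transmembrane class 4 semaphorins, 5 were higher in TdTomato+ cells (37.9% of all genes were) and 1 was lower (39.4%), with *Sema4a*, *Sema4c*, *Sema4d*, *Sema4f* and *Sema4g* called higher, *Sema4b* called lower, and a median of 1.03. *Sema4g* was the semaphorin with the highest level per kb in TdTomato+ cells (44.5 CPM per kb of exon). It was at 471, 315, 347, 356 and 435 CPM in the TdTomato+ libraries of mice 2 to 6 and at 160, 118, 124, 125 and 149 CPM in the TdTomato- libraries, a log2FC of 1.50±0.04 (FDR=3.5e-09). Every TdTomato+ library was above every TdTomato- library, and the libraries of mice 3 and 4 were the lowest of both populations while the log2 ratio in each mouse stayed between 1.41 and 1.55. *Sema4c*, a partner of plexin B2 in the brain, was at 156, 173, 184, 162 and 152 CPM in TdTomato+ against 104, 109, 114, 104 and 112 CPM in TdTomato- libraries (log2FC 0.60±0.05, FDR=2.8e-06), again without overlap. About 7.3% of its exonic length lies under an antisense gene.

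*Sema4f* had the largest increase of the 20 semaphorins. It rose from 16.7±1.02 to 55.6±4.10 CPM (log2FC 1.73±0.05, FDR=5.8e-09), with log2 ratios of 1.62 to 1.80 in the 5 mice. *Sema4d*, the ligand of plexin B1, rose from 40.6±5.83 to 111±7.90 CPM (log2FC 1.46±0.09, FDR=5.1e-07). Its log2 ratio was 1.92 in mouse 2, whose TdTomato- library was the lowest at 31.5 CPM, and 1.32 to 1.37 in the other mice. *Sema4a* changed less, from 20.3±2.80 to 28.9±2.99 CPM (log2FC 0.51±0.07, FDR=9.2e-05). *Sema4b* was the exception in the class, at 47.9±2.80 CPM in TdTomato- against 43.0±3.11 CPM in TdTomato+ cells (log2FC −0.16±0.05, FDR=0.012), with overlapping libraries. This small fall was not called by DESeq2 (FDR=0.060) or without mice 3 and 4 (FDR=0.099).

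**Figure D2:**
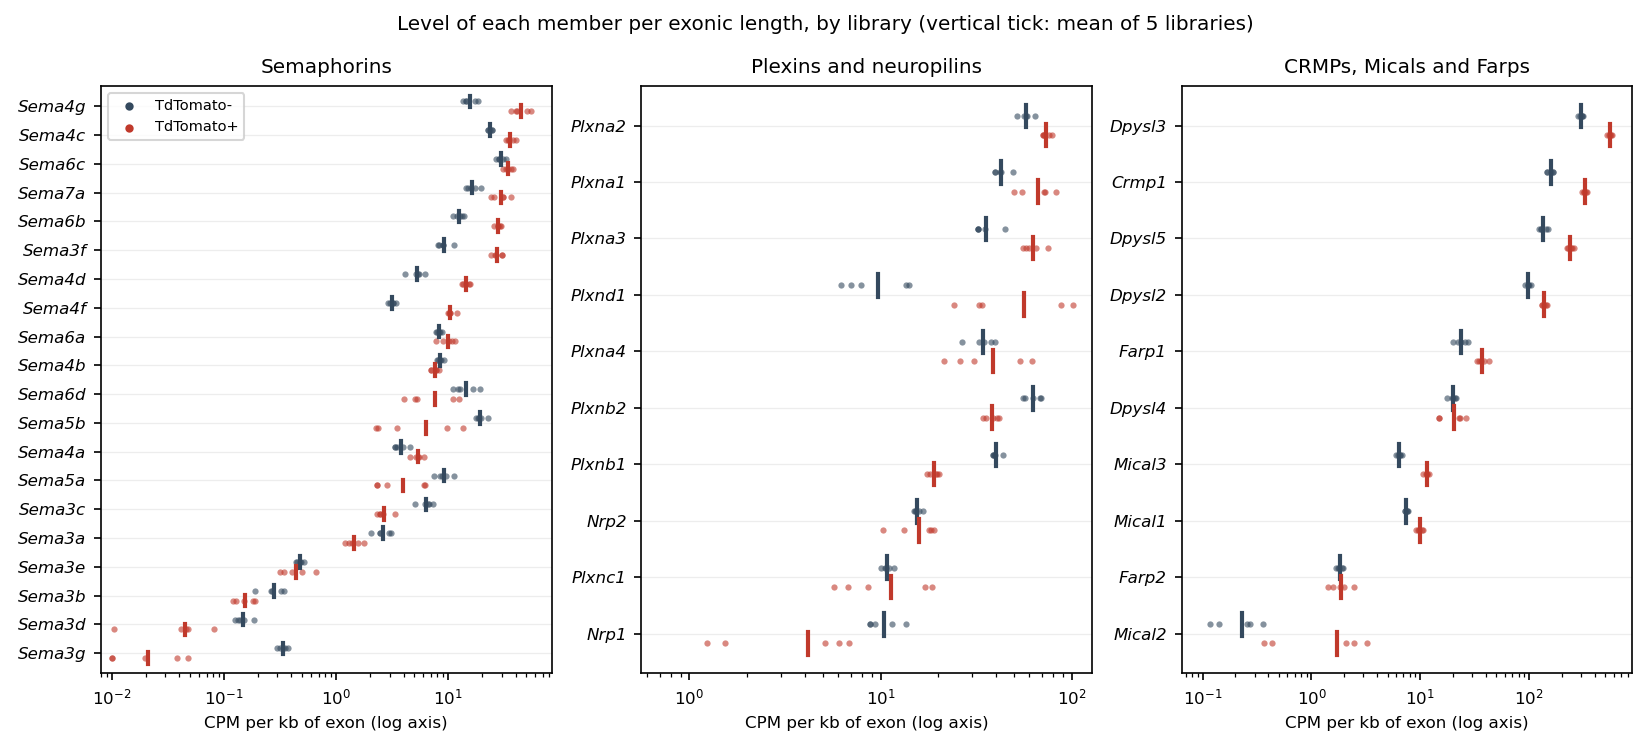
Level of each gene in CPM per kb of exon (log axis) in every library, TdTomato- in dark blue and TdTomato+ in red, with a vertical tick at the mean of 5 libraries; genes are ordered by their TdTomato+ mean. The 2 TdTomato+ libraries without a *Sema3g* count are drawn at the left edge. *Dpysl3* lies highest of the 40 genes, at 549 CPM per kb in TdTomato+ and 299 in TdTomato- libraries.

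Classes 5 and 6, whose members guide axons through class A plexins, went both ways. *Sema5a* and *Sema5b* carry thrombospondin repeats and are known to repel retinal neurites through plexins A1 and A3. *Sema5b* was at 16.1, 69.6, 96.2, 24.9 and 16.7 CPM in the TdTomato+ libraries of mice 2 to 6 and at 159, 139, 124, 133 and 130 CPM in the TdTomato- libraries. It was lower in TdTomato+ cells in every mouse without overlap, and its TdTomato+ level ranged over 5.96-fold, with mice 3 and 4 highest. Its log2FC of −1.96±0.41 (FDR=0.0018) lay just short of the DEG threshold, and it was past it by DESeq2 (−2.02), without mouse 3 (−2.24), without mouse 4 (−2.38) and without both (−2.88). *Sema5a* fell by 1.33±0.17 in log2FC (FDR=8.6e-05), from 170±27.6 to 73.8±37.6 CPM, and its TdTomato+ libraries of mice 3 and 4 (113 and 116 CPM) were again above the other three (43.0 to 53.1 CPM). Without mice 3 and 4 the log2FC of *Sema5a* was −1.72.

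*Sema6c* was among the most abundant semaphorins per kb in both populations and differed little. It was at 225, 183, 205, 195 and 215 CPM in TdTomato+ against 196, 158, 170, 168 and 184 CPM in TdTomato- libraries, so that the populations overlapped although each mouse had a log2 ratio of 0.20 to 0.27 (log2FC 0.22±0.03, FDR=3.1e-04). *Sema6b* rose from 50.0±4.37 to 111±5.71 CPM (log2FC 1.15±0.05, FDR=4.1e-08) without overlap. *Sema6a*, a ligand of plexins A2 and A4, was at 87.1±13.1 and 72.7±3.90 CPM (log2FC 0.25±0.07, FDR=0.011), higher in 4 of 5 mice, and was not called without mice 3 and 4 (FDR=0.098). *Sema6d*, a ligand of plexin A1, fell by 1.04±0.14 in log2FC (FDR=9.3e-05) and was at 42.5 to 131 CPM in TdTomato+ libraries, with mice 3 and 4 highest, and 117 to 205 CPM in TdTomato- libraries. Without mice 3 and 4 its log2FC was −1.33. *Sema7a*, a membrane-anchored semaphorin that binds integrins and plexin C1, rose from 54.3±7.27 to 97.5±16.0 CPM (log2FC 0.84±0.05, FDR=4.0e-07). The 13 membrane semaphorins of classes 4 to 7 together had a median of 0.51, with 9 called higher (69.2%, against 37.9% of all genes) and 4 lower (30.8%, against 39.4%). The 8 radial glia and 6 GABAergic markers given above were all called lower. That is the direction of the 4 lower membrane semaphorins and opposite to that of the 9 higher ones, and the part of these markers was not tested.

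Of the class A plexins, the signalling subunit of the class 3 receptor, *Plxna1*, *Plxna2* and *Plxna3* had the highest mean levels per kb of the 10 receptors in TdTomato+ cells and were called higher there (37.9% of all genes were). *Plxna2*, also the receptor of Sema6a, was at 1214, 1353, 1304, 1226 and 1211 CPM in the TdTomato+ libraries of mice 2 to 6 and at 888, 1098, 984, 1003 and 962 CPM in the TdTomato- libraries (log2FC 0.36±0.04, FDR=3.0e-05). These populations did not overlap, and the TdTomato+ libraries ranged over only 1.12-fold. *Plxna3*, on the X chromosome from 74329066 to 74344689, was at 592, 435, 469, 457 and 511 CPM in TdTomato+ against 353, 254, 255, 254 and 278 CPM in TdTomato- libraries (log2FC 0.82±0.04, FDR=8.0e-08), with log2 ratios of 0.75 to 0.88 in every mouse. *Plxna1* was at 750, 500, 450, 658 and 649 CPM in TdTomato+ against 360, 386, 446, 381 and 361 CPM in TdTomato- libraries (log2FC 0.62±0.13, FDR=0.0021), and the log2FC was 0.90 without mice 3 and 4. The log2 ratio was 0.01 in mouse 4 and 0.37 in mouse 3, and 0.79 to 1.06 in the other mice. About 10.7% of the exonic length of *Plxna1* lies under an antisense gene.

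*Plxna4*, a receptor of Sema3a and Sema6a, was chosen for detail after its values were seen, as were the other wide-ranging genes below. It was at 304, 757, 871, 434 and 365 CPM in the TdTomato+ libraries of mice 2 to 6, and at 377, 558, 531, 462 and 488 CPM in the TdTomato- libraries. Its TdTomato+ level was thus above the TdTomato- level in mice 3 and 4 and below it in mice 2, 5 and 6, and the log2FC over all mice was 0.07±0.15 (FDR=0.70). Without mice 3 and 4 it was −0.27 (FDR=0.0049).

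The 2 class B plexins in the table, which bind class 4 semaphorins, were both called lower in TdTomato+ cells (39.4% of all genes were). *Plxnb2*, known from neural progenitors, was at 314, 266, 276, 297 and 323 CPM in TdTomato+ against 486, 441, 428, 524 and 536 CPM in TdTomato- libraries, a log2FC of −0.71±0.04 (FDR=3.5e-07). It was the receptor with the highest level per kb in TdTomato- cells (62.6 CPM per kb) and was the sixth of 10 in TdTomato+ cells (38.2 CPM per kb). *Plxnb1* fell by 1.07±0.04 in log2FC (FDR=3.6e-08), from 384±19.6 to 183±10.9 CPM, with log2 ratios from −1.15 to −0.97 in the 5 mice. Neither gene's populations overlapped. The ligand and the receptor of the Sema4d and plexin B1 pair therefore differed in opposite directions, *Sema4d* being at 111±7.90 CPM and *Plxnb1* at 183±10.9 CPM in TdTomato+ cells.

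*Plxnd1*, the receptor of Sema3e, was the receptor with the largest change. It was at 247, 643, 746, 239 and 177 CPM in the TdTomato+ libraries of mice 2 to 6 and at 57.5, 98.8, 103, 45.5 and 51.3 CPM in the TdTomato- libraries. Every TdTomato+ library was above every TdTomato- library, and mice 3 and 4 were the highest in both populations. The log2FC was 2.38±0.14 (FDR=5.0e-07), the log2 ratio was 1.79 to 2.86 in single mice, and without mice 3 and 4 the log2FC was 2.09. Its mean per kb of exon was 9.75 CPM in TdTomato- and 56.2 CPM in TdTomato+ libraries. In TdTomato+ libraries it was the highest of the 10 receptors per kb in mice 3 and 4 (88.0 and 102 CPM per kb) and lay below *Plxnb2* in mice 2, 5 and 6 (24.3 to 33.8 against 38.5 to 41.8 CPM per kb). Its ligand *Sema3e* had a mean of 0.443 CPM per kb in TdTomato+ libraries. *Plxnd1* (chromosome 6 from 115954811 to 115995005) and *Plxna1* lie on the same chromosome, 26.59 Mb apart.

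*Plxnc1*, the receptor of Sema7a, was split between mice in the same way. Its TdTomato+ libraries were at 56.7, 142, 155, 72.1 and 47.8 CPM in mice 2 to 6, on both sides of the TdTomato- libraries at 97.7, 87.8, 89.3, 91.6 and 84.0 CPM. The log2FC was −0.08±0.25 (FDR=0.77) over all mice and −0.65 (FDR=8.1e-05) without mice 3 and 4.

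Of the neuropilins, *Nrp1*, the Sema3a and Sema3c binding subunit, was lower in TdTomato+ cells. It was at 49.8, 15.1, 12.0, 59.5 and 67.0 CPM in the TdTomato+ libraries and at 85.8, 91.1, 86.5, 113 and 133 CPM in the TdTomato- libraries of mice 2 to 6. The populations did not overlap, and the TdTomato+ libraries of mice 3 and 4 were lowest. The log2FC was −1.56±0.31 (FDR=0.0014), and −0.90 without mice 3 and 4. *Nrp2*, the Sema3f binding subunit, was at 157, 216, 212, 227 and 122 CPM in TdTomato+ against 176, 178, 196, 181 and 187 CPM in TdTomato- libraries (log2FC −0.01±0.12, FDR=0.94), with a wider spread in TdTomato+ libraries. *Nrp2* made up 78.8±14.2% of the neuropilin level per kb in TdTomato+ and 60.1±4.63% in TdTomato- libraries. In the 5 TdTomato+ libraries this share ranged from 60.0% to 93.6%, overlapping the 53.9% to 65.2% of the TdTomato- libraries.

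The make-up of the plexins differed between the populations and among TdTomato+ libraries. Summed over 8 plexins, the level was 366±43.4 CPM per kb in TdTomato+ and 293±3.91 CPM per kb in TdTomato- libraries. Plexins B1 and B2 held 5.27±0.748% and 10.6±1.99% of this sum in TdTomato+ and 13.7±0.832% and 21.4±2.34% in TdTomato- libraries. *Plxnd1* held 14.6±7.81% in TdTomato+ and 3.32±1.24% in TdTomato- libraries. In single TdTomato+ libraries the *Plxnd1* share was 22.0% and 24.2% in mice 3 and 4 and 7.47% to 9.9% in mice 2, 5 and 6, while the *Plxna1* share was 13.8% and 11.8% against 22.0% to 23.6%. The *Plxna2* share was nearly constant, at 18.0% to 21.7% of TdTomato+ and 17.9% to 21.4% of TdTomato- libraries.

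**Figure D3:**
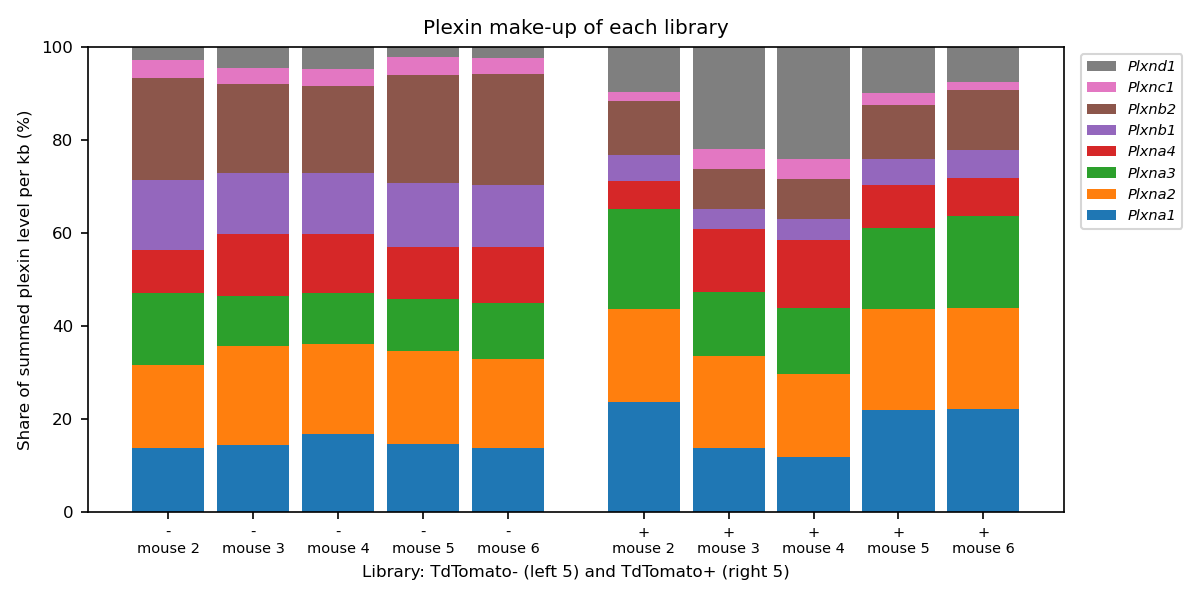
Share of each plexin in the summed plexin level (CPM per kb of exon, %) of every library, TdTomato- on the left and TdTomato+ on the right. The *Plxnd1* share is larger in all TdTomato+ libraries and largest in those of mice 3 and 4 (22.0% and 24.2%), and the shares of *Plxnb1* and *Plxnb2* are smaller.

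The CRMP genes *Crmp1*, *Dpysl2*, *Dpysl3* and *Dpysl5* had the highest mean levels per kb of the 40 genes in both populations and were called higher in TdTomato+ cells (37.9% of all genes were), whereas *Dpysl4* did not pass the test. The summed level of the 5 CRMPs was 1270±32.4 CPM per kb in TdTomato+ and 707±32.2 CPM per kb in TdTomato- libraries. *Dpysl3* (CRMP4), which binds tubulin and bundles actin, was at 3727, 3625, 3559, 3800 and 3438 CPM in the TdTomato+ libraries of mice 2 to 6 and at 1914, 1860, 2084, 2001 and 2022 CPM in the TdTomato- libraries. The libraries of each population lay close together and far from those of the other, and the log2FC was 0.88±0.05 (FDR=2.0e-07). *Crmp1*, which takes part in Sema3a signalling, was at 2254, 2344, 2412, 2233 and 2159 CPM in TdTomato+ against 1034, 1033, 1159, 1122 and 1170 CPM in TdTomato- libraries (log2FC 1.05±0.05, FDR=9.4e-08). *Dpysl5* (CRMP5), known to restrain neurite growth, was at 1894, 1639, 1674, 1790 and 1834 CPM in TdTomato+ against 952, 902, 945, 1046 and 1091 CPM in TdTomato- libraries (log2FC 0.84±0.04, FDR=2.1e-07). In none of these 3 genes did the populations overlap.

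*Dpysl2* (CRMP2), which promotes axon growth by binding tubulin, changed less, from 442±19.5 to 622±29.7 CPM (log2FC 0.49±0.05, FDR=1.1e-05), and its share of the CRMP level per kb was 10.8±0.393% in TdTomato+ and 13.9±0.667% in TdTomato- libraries. The *Dpysl3* share was 43.2±0.679% and 42.3±0.604% and the *Dpysl5* share 18.9±1.07% and 18.9±1.03%. The *Crmp1* share lay between 24.3% and 27.3% in TdTomato+ libraries, above the 21.6% to 22.5% of the TdTomato- libraries, and the *Dpysl4* share between 1.17% and 2.01%, below the 2.62% to 3.12% of the TdTomato- libraries, so that the shares of *Crmp1*, *Dpysl2* and *Dpysl4* did not overlap between the populations. *Dpysl4* was at 157, 87.9, 88.4, 135 and 138 CPM in TdTomato+ against 127, 105, 119, 125 and 116 CPM in TdTomato- libraries of mice 2 to 6. It was below its TdTomato- level in mice 3 and 4 and above it in the other mice (log2FC −0.00±0.10, FDR=0.97), and without mice 3 and 4 its log2FC was 0.22 (FDR=0.010).

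The Micals, flavin monooxygenases that bind plexin A and disassemble actin, have 3 genes in the table, all called higher in TdTomato+ cells (37.9% of all genes were). *Mical2* was at 49.3, 6.55, 5.52, 31.5 and 37.8 CPM in the TdTomato+ libraries of mice 2 to 6 and at 5.40, 1.80, 2.13, 3.92 and 4.11 CPM in the TdTomato- libraries. Each TdTomato+ library was above all TdTomato- libraries, but that of mouse 4, at 5.52 CPM, only just above the highest TdTomato- library, at 5.40 CPM. The log2FC was 2.70±0.25 (FDR=1.0e-05), and the log2 ratio in single mice was 1.34 and 1.82 in mice 4 and 3 and 2.98 to 3.17 in the others. Without mice 3 and 4 the log2FC was 3.14. The mean level of *Mical2* in TdTomato+ cells was 1.72 CPM per kb, below *Mical3* (11.4) and *Mical1* (9.86), and in mice 2, 5 and 6 it was above *Farp2* (2.07 to 3.24 against 1.42 to 1.82 CPM per kb). *Mical3* rose from 147±7.64 to 261±12.7 CPM (log2FC 0.83±0.04, FDR=7.3e-08) and *Mical1* from 45.0±1.45 to 59.6±3.56 CPM (log2FC 0.40±0.04, FDR=2.8e-05). About 15.0% of the exonic length of *Mical1* lies under *Smpd2* on the other strand. Of the Farps, *Farp1*, a Rac activator of dendrites that binds class A plexins, rose from 131±16.5 to 204±20.2 CPM (log2FC 0.64±0.04, FDR=1.1e-06). *Farp2*, which binds plexin A1 and is released by Sema3a, was at 9.72±2.14 and 9.51±0.568 CPM (log2FC 0.01±0.12, FDR=0.93), and 19.4% of its exonic length lies under *Stk25*.

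The genes that varied most among TdTomato+ libraries were spread over all roles. Of genes with a mean over 10 CPM in TdTomato+ libraries, the 8 with the largest s.d. of log2 CPM in TdTomato+ libraries were *Mical2* (1.49), *Sema5b* (1.19), *Nrp1* (1.17), *Plxnd1* (0.93), *Plxnc1* (0.77), *Sema6d* (0.73), *Sema5a* (0.73) and *Plxna4* (0.66), compared with a median of 0.21 over the 40 genes and 0.14 over all genes. In each of the 8 the TdTomato+ libraries of mice 3 and 4 were at 1 end (60.0% of the 40 genes and 39.3% of all genes). The 8 were picked by their spread over these same libraries, so this count is no separate result. Mice 3 and 4 were the highest for *Sema5a*, *Sema5b*, *Sema6d*, *Plxna4*, *Plxnc1* and *Plxnd1* and the lowest for *Nrp1* and *Mical2*. In the TdTomato- libraries mice 3 and 4 were also the highest for *Sema5a*, *Sema6d*, *Plxna4* and *Plxnd1* and the lowest for *Mical2*, as in the TdTomato+ libraries. For *Sema5b*, *Nrp1* and *Plxnc1* they were not together at 1 end of the TdTomato- libraries, that of mouse 4 being the lowest for *Sema5b*, and the s.d. there was 0.14, 0.28 and 0.08. The CRMPs *Crmp1*, *Dpysl2*, *Dpysl3* and *Dpysl5* showed no such spread, with an s.d. of 0.06 to 0.09 in TdTomato+ libraries. Neuron markers also differed between the TdTomato+ libraries of mice 3 and 4 and the others. *Tle4*, *Foxp2* and *Rorb* were lowest there, like *Nrp1* and *Mical2*, and *Tbr1*, *Sox5* (1307 and 1193 against 968 to 1158 CPM) and *Bcl11b* (1606 and 1539 against 1254 to 1412 CPM) were highest there, like the other 6 genes. The erythroid markers summed to 8.72 and 25.7 CPM in the TdTomato+ libraries of mice 3 and 4 and to 1.18 to 5.15 CPM in the other three, and the microglial markers to at most 1.63 CPM in any. The part of these markers was not tested.

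**Figure D4:**
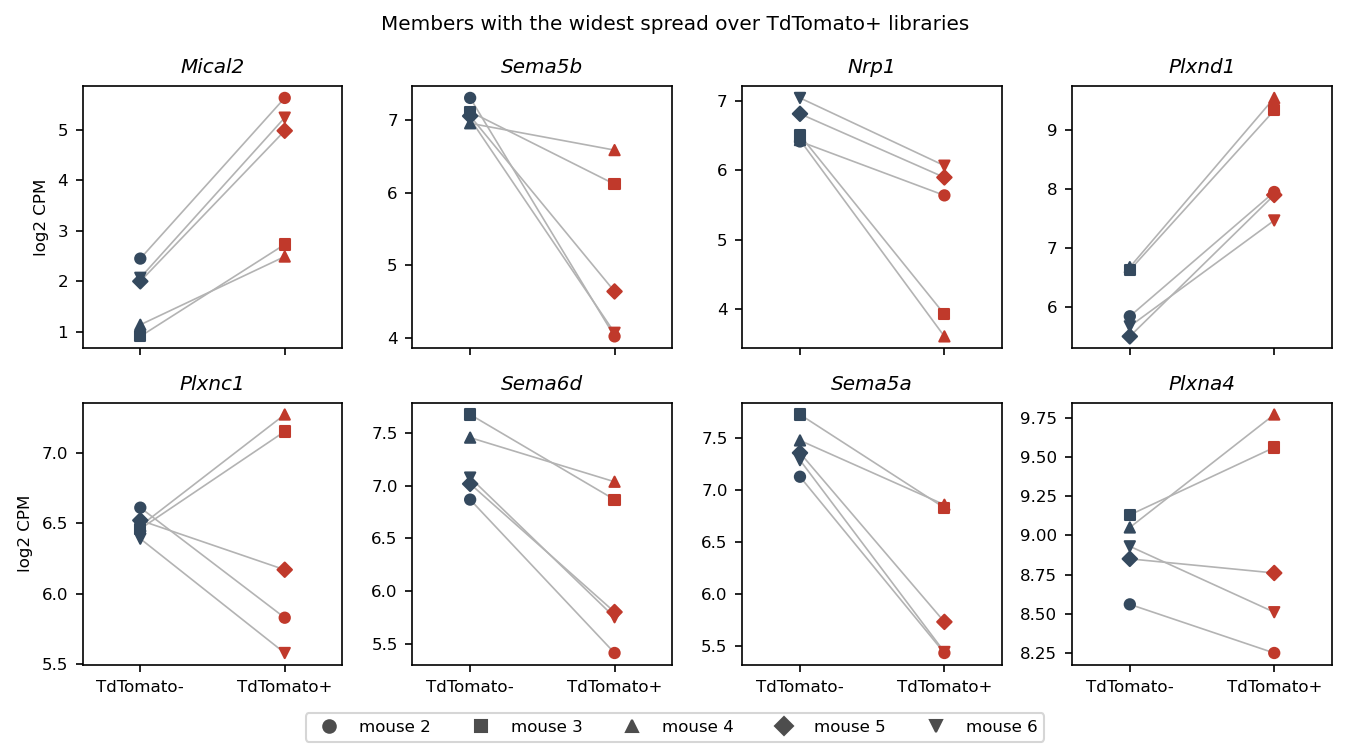
Level in log2 CPM of the 8 genes with the largest spread over TdTomato+ libraries, with the TdTomato- and TdTomato+ libraries of the same mouse joined by a line. The TdTomato+ libraries of mice 3 (square) and 4 (triangle) lie together at the top or the bottom in every panel.

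Of the other genes of semaphorin signalling, 61 of those listed had a row, while others, such as *Flt1* and *Havcr2*, had none and were not analysed here. Of the 61, 31 were higher, 17 lower and 13 not called at an FDR of at most 0.05 (37.9%, 39.4% and 22.7% of all genes), with a median log2FC of 0.15. With the fold change threshold as well, 1 gene passed both thresholds upwards and 3 downwards (3.2% and 9.74% of all genes). Among 15 coreceptors and other receptors, 9 were higher (60.0%, against 37.9% of all genes) and 5 lower (33.3%, against 39.4%). The 4 largest increases of the 61 were all in this list. *Chl1*, an adhesion molecule of the L1 family that binds Nrp1, rose from 187±10.9 to 1100±212 CPM (log2FC 2.53±0.11, FDR=5.3e-08). *Nrcam*, its relative that binds Nrp2, rose from 188±19.1 to 597±70.0 CPM (log2FC 1.67±0.04, FDR=3.6e-09). *L1cam*, the Nrp1 coreceptor for Sema3a, rose from 319±19.7 to 892±52.7 CPM (log2FC 1.48±0.05, FDR=7.8e-09). *Met*, a receptor tyrosine kinase that partners class B plexins, rose from 2.09±0.863 to 6.29±3.45 CPM (log2FC 1.53±0.19, FDR=5.6e-05), with overlapping libraries. *Nrp1* was thus lower in TdTomato+ cells and its L1-family partners higher.

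The 4 largest decreases were those of *Erbb2*, *Rras*, *Itga1* and *Mmp14*. *Erbb2*, a kinase that partners class B plexins, fell by 4.30±0.20 in log2FC (FDR=8.2e-08), from 17.7±2.10 to 0.893±0.324 CPM. *Rras*, a GTPase that plexins switch off, fell by 3.19±0.30 in log2FC (FDR=1.1e-05), with 3 to 17 counts in TdTomato+ libraries, and the integrin gene *Itga1*, a receptor of Sema7a, fell by 2.40±0.34 in log2FC (FDR=1.7e-04), with 2 to 10 counts. *Mmp14*, a membrane metalloprotease, fell by 1.96±0.10 in log2FC (FDR=1.2e-07), from 104±15.0 to 27.3±7.74 CPM. For each of these 4, picked for their large decreases, the libraries of the populations did not overlap (32.4% of all genes were lower without overlap).

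Among 17 kinases and phosphatases, 9 were higher (52.9%, against 37.9% of all genes), 2 lower (11.8%, against 39.4%) and 6 not called. Of the kinases that phosphorylate CRMPs after Sema3a, *Cdk5* was at 70.0±3.83 and 49.7±4.70 CPM (log2FC 0.50±0.04, FDR=7.4e-06) and its activator *Cdk5r1* (p35) at 704±19.8 and 474±24.3 CPM (log2FC 0.57±0.05, FDR=3.1e-06) in TdTomato+ and TdTomato- cells. *Cdk5r2* (p39), the other activator of Cdk5, had a log2FC of 0.07±0.06 (FDR=0.32) and was not called. Of the kinases tied to plexin A signalling, *Fyn* was not called (log2FC −0.06±0.06, FDR=0.33) and *Fes*, with 8 to 15 counts in TdTomato+ libraries, was lower (log2FC −1.56±0.25, FDR=4.0e-04). *Gsk3b*, which acts after Cdk5, was at 537±28.3 and 501±31.5 CPM (log2FC 0.10±0.04, FDR=0.055) and did not pass the test. Of 12 adaptors, actin factors and proteases, 5 were higher, 5 lower and 2 not called, and the 41.7% in each direction is near the 37.9% and 39.4% of all genes.

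**Figure D5:**
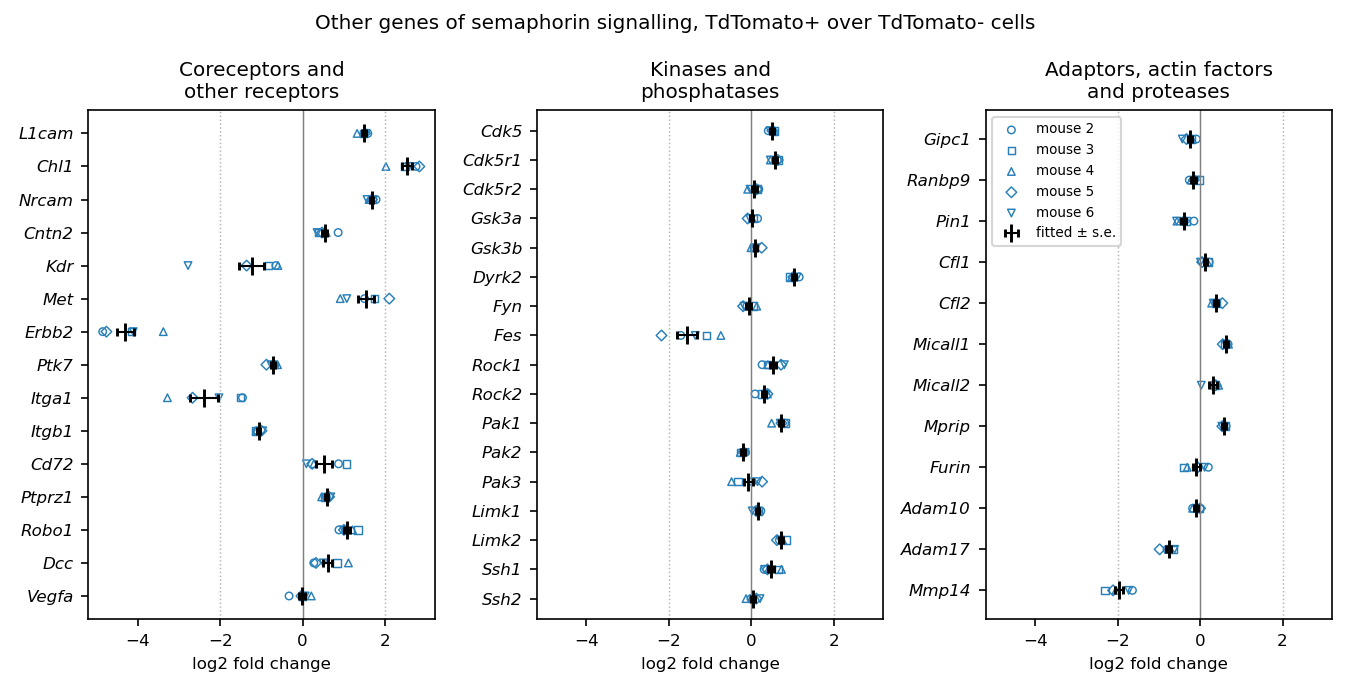
Log2 fold change, TdTomato+ over TdTomato-, of other genes of semaphorin signalling in 3 lists (coreceptors and other receptors, kinases and phosphatases, and adaptors, actin factors and proteases). Black marks are fitted values with their s.e., open symbols the log2 ratios of single mice and dotted lines −2 and 2; *Chl1* (2.53) lies beyond the upper line and *Erbb2* (−4.30) and *Itga1* (−2.40) beyond the lower one.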

How the data were processed

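Polyadenylated RNA of flow-sorted TdTomato+ and TdTomato- cells was sequenced in 10 libraries (tamoxifen at 13.5 dpc, cells at 14.5 dpc). Per the labels and the methods of the study, the authors trimmed bases with a Phred score below 28, aligned reads with STAR 2.4.2a to GRCm38 with at most 1 mismatch, kept unique alignments and deposited raw counts of reads per gene. The annotation release and strand column are not given in the sources used here, so counts of overlapping genes are uncertain, and the library kit and read length differ between the methods and the labels.

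Genes were matched to GENCODE vM21 (14271 with a symbol, 29 without), whose exons gave the length used for CPM per kb. All 14300 genes entered a quasi-likelihood F-test (edgeR 4.0.16, R 4.3.3) after filterByExpr and TMM normalization, the mouse being a block, and p-values were adjusted by Benjamini-Hochberg (FDR). The s.e. is the log2FC over the square root of F, and log2 CPM used a prior count of 2. A p-value measures the spread between these 5 pairs only. The methods state that comparisons were paired, and libraries with the same number in their labels were taken as the pairs here. Deviations from the group means correlated at 0.303, 0.268, 0.281, 0.186 and 0.316 within mice 2 to 6 and from −0.312 to 0.212 between mice. No library pair was identical. Fits were tested on simulated counts. Total counts were 23429034 to 27286180, and a floor of 3 counts covers counting error only.

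The genes and lists were chosen with earlier results of these data known. Named are all 40 genes, with library values for DEGs and for the 3 highest per kb of each role in either population, and the 4 largest increases and decreases of the other pathway genes past an FDR of 0.05, and *L1cam*, *Cdk5*, *Cdk5r1* and *Gsk3b* whatever their values, *L1cam* being named by both parts of this rule. *Cdk5r2*, *Fyn* and *Fes* were added after their values were seen. Library values of *Plxna4*, *Plxnc1*, *Nrp1*, *Nrp2* and *Dpysl4* were added after their values were seen. Alternatives were scaling by RLE or the upper quartile, DESeq2 1.42.0, leaving out the count filter or raising it to over 1 CPM in 5 libraries, leaving out the mouse block, TREAT (a test of log2FC beyond 1), robust estimation, a prior count of 2, each mouse left out in turn and, added later, mice 3 and 4 left out. The counts of 1 list of other pathway genes are not reported here.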

Additional observations from a re-analysis of the deposited data

Results flagged for a closer look

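Of 80 groups of 5 libraries (40 genes in each population), 3 held a library far from the others, where chance would give about 4. *Sema4f* in the TdTomato+ library of mouse 2 was at 5.97 log2 CPM and the others at 5.72 to 5.77, a gap of 0.804 of the range. *Plxna3* in the TdTomato- library of mouse 2 was at 8.46 and the others at 7.99 to 8.12 (0.722 of the range), and *Plxnb1* in the same library was at 8.71 and the others at 8.54 to 8.57 (0.841 of the range).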

How the results depend on the processing

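Over all alternatives, 553 of the log2FC values of the 40 genes kept their direction and their side of the FDR threshold, 27 lost the call, 1 gained it and 18 changed sign, of which 2 were also called (*Plxna4* and *Dpysl4* without mice 3 and 4). TREAT, which by construction calls only a log2FC beyond 1, removed 23 of these calls. By TREAT 5 semaphorins were higher and 4 lower (10 and 9 in the main test), 1 receptor was higher and 0 lower (4 and 3, with 2 lower at an unadjusted p under 0.05 by TREAT), 1 mediator was higher (8), 5 other pathway genes were higher and 6 lower (31 and 17), and of all genes 1229 were higher and 1964 lower (5424 and 5632). DESeq2 lost *Sema3b* and *Sema4b*, and put 2 semaphorins past both DEG thresholds downwards (1 in the main test), *Sema5b* being the second. That number was 1 to 2 with single mice left out (2 without mouse 3 or 4, through *Sema5b*, and without mouse 5, through *Sema3d*) and 2 with mice 3 and 4 left out. Leaving out mice 3 and 4 also lost *Sema4b* and *Sema6a* and gave 5 receptors lower (3 in the main test), *Plxnc1* (−0.65) and *Plxna4* (−0.27) being added, and *Dpysl4* (0.22) called higher, with the sign also changed for *Farp2* (−0.19).

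Changes of sign were limited to *Nrp2*, *Plxna4*, *Plxnc1*, *Dpysl4* and *Farp2*, none of which was called in the main test, and the cause was not tested. With single mice left out, log2FC ranged from −0.10 to 0.15 for *Nrp2*, from −0.09 to 0.20 for *Plxna4*, from −0.31 to 0.11 for *Plxnc1*, and from −0.08 to 0.10 for both *Dpysl4* and *Farp2*. RLE gave 0.00 for *Dpysl4* and the upper quartile −0.01 for *Farp2*. Without the replicate block log2FC was 0.02 for *Nrp2*, 0.07 for *Plxnc1* and 0.03 for *Dpysl4*, and the block changed no call among the 40 genes. The filter on CPM removed *Sema3b*, and depth limited *Sema3g* (0 to 5 counts) and *Sema3d* (2 to 16 counts) in TdTomato+ libraries.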
